A study of Mus musculus with 8 samples.

Results

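The 10 genes described here are *Pecam1*, *Cdh5*, *Esam*, *Kdr*, *Flt1*, *Tek*, *Tie1*, *Emcn*, *Egfl7* and *Vwf*, which endothelial cells express and which are widely used to recognise them. They were taken by gene name from the deposited expression table, where they are 10 of 54532 genes. Each name was found on 1 row, and all 10 were detected in all 8 libraries. The cells sequenced were MICFs, which are cardiac fibroblasts isolated from the infarcted area of hearts of C57BL/6 mice after myocardial infarction (MI). In all groups, cultured MICFs carried tetracycline-inducible lentiviruses for MGT (*Mef2c*, *Gata4* and *Tbx5* in a single construct), *Myocd*, *Sall4* and eGFP, which the labels call MGTMyoS overexpression, and all groups received doxycycline. For the *in vivo* samples, infected cells were injected into the left ventricle of mice with ligated coronary arteries under the immunosuppressants tacrolimus, methylprednisolone and mycophenolate mofetil. For the *in vitro* samples, cells of the same infection stayed in culture with doxycycline, in a medium that held SB431542 (an inhibitor of TGF-beta receptors) and the JAK inhibitor baricitinib. These agents and the immunosuppressants separate the groups along with the setting. Cells positive for eGFP were sorted from hearts on Days 7 and 14 (1 week and 2 weeks), and each of the 4 groups has 2 libraries. For the cultured cells, the study describes the same sort in its results, while its methods name sorted eGFP+ cells and cultured cells separately, so whether the culture libraries hold sorted cells alone is not settled.

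These groups have limits as a model of the endothelium. No sorting of the donor isolate for fibroblasts before infection is described. By staining, the study counted such isolates as mostly cardiac fibroblasts, with a smaller part of macrophages and few endothelial cells. The sort used eGFP and no endothelial surface marker, so every library may hold a mixture of cell types. In such bulk libraries, fewer cells of a type and less RNA per cell cannot be told apart. The sources used here do not say whether the 2 samples of a group came from separate mice or wells, so the p-values measure only the spread between these samples, which may be technical. No group is a control without the reprogramming factors.

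Endothelial cells line blood and lymphatic vessels and the chambers of the heart. They hold together through adherens and tight junctions, grow and survive through vascular endothelial growth factor (VEGF) receptors, and keep vessels stable through the angiopoietin receptor of the TIE family. Several of their genes are shared with blood cells. *Pecam1* is also made by platelets and macrophages, and *Vwf* by megakaryocytes and platelets.

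Expression was measured as FPKM, fragments on a gene scaled for its length and for sequencing depth, so that levels of different genes can be compared. Between 12304242 and 14546904 fragments were counted on genes per library. The lowest count behind any value of the 10 genes was 16 fragments, for *Vwf*. Groups were compared on log2(FPKM + 0.1) with limma across the 15708 genes that reached an FPKM of 0.5 in 2 or more libraries, all 10 included. To count as changed a gene needed an adjusted p (Benjamini-Hochberg) under 0.01 and a log2 difference beyond 1 in either direction. All log2 differences below are on that scale, on which changes of low genes come out smaller. The ± value after a log2 difference is its standard error from the fit.

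At 1 week, 8 of the 10 genes were higher *in vivo* than *in vitro* by limma, while 7.79% of all tested genes were. Their median log2 difference was 2.58, beside -0.0058 over all tested genes. *Flt1* and *Tek* did not pass, with log2 differences of 0.89 ± 0.12 and 0.37 ± 0.06. At 2 weeks 5 of the 10 passed, all higher *in vivo* (*Pecam1*, *Flt1*, *Tie1*, *Egfl7* and *Vwf*), beside 9.02% of tested genes, and the median of the 10 was 1.07. Over both weeks 8 of the 10 were higher *in vivo*, beside 9.56% of tested genes, and *Tek* and *Esam* were the 2 that did not pass. The FPKM summed over the 10 genes was 107 and 94.7 *in vivo* and 26.3 and 27.3 *in vitro* at 1 week, and 86.2 and 93.2 *in vivo* and 63.6 and 53.7 *in vitro* at 2 weeks. Thus the sum stayed between 86.2 and 107 in the heart, while in culture the 2-week libraries lay above the 1-week libraries and still below every library from the heart.

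**Figure D1:**
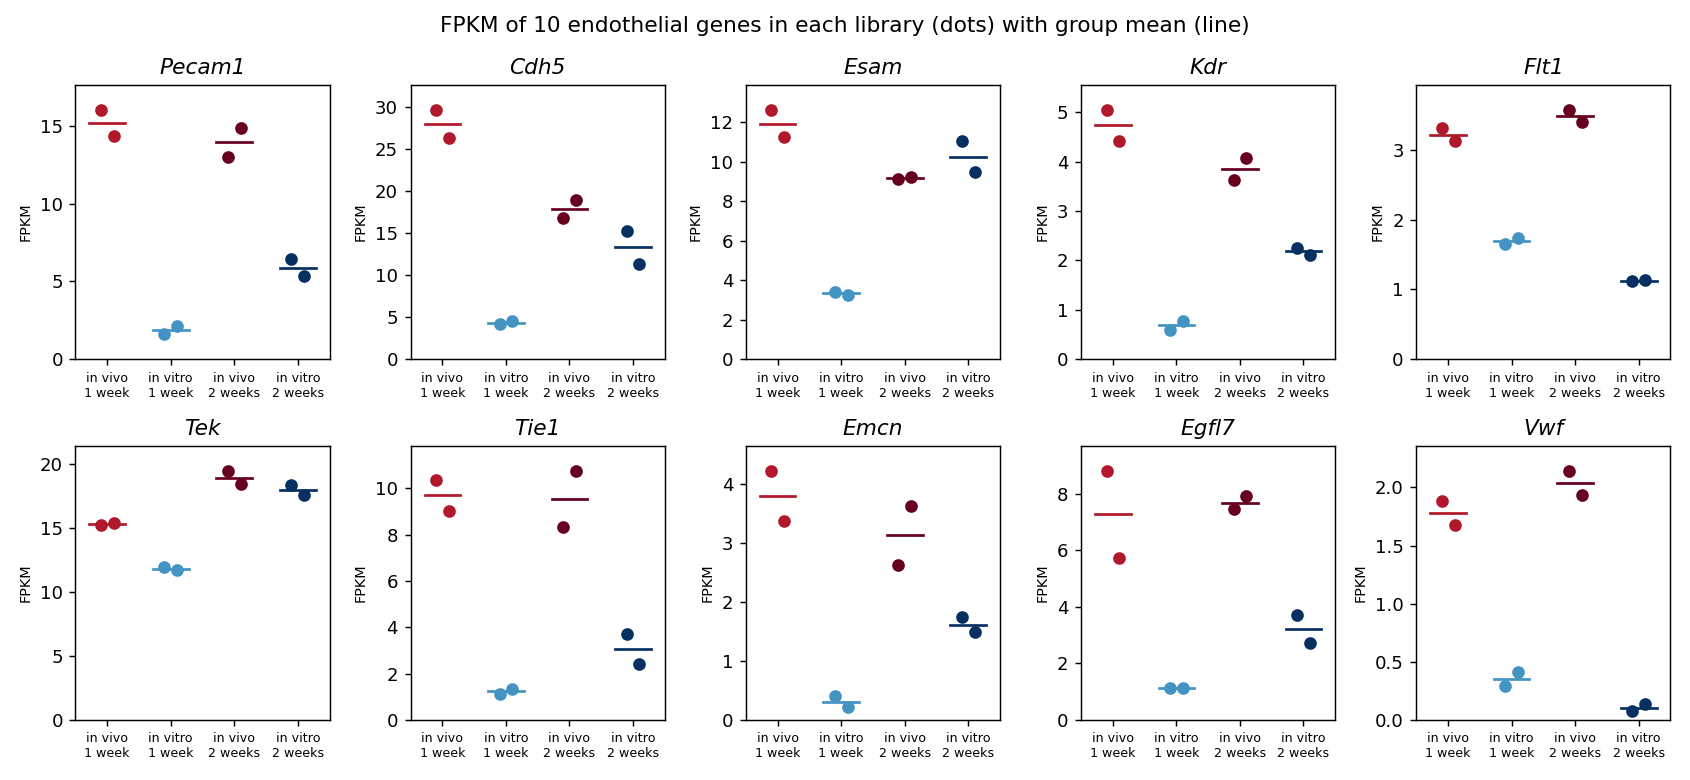
FPKM of the 10 genes (y axis, from 0, with its own scale in each panel) in the 4 groups, with 1 dot for each library and a line at the mean of the 2 libraries. Most panels show the lowest level *in vitro* at 1 week, whereas *Flt1* and *Vwf* were lowest *in vitro* at 2 weeks and *Tek* ranged only between 11.8 and 19.5.

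The junction and adhesion genes come first. *Pecam1* (chr11:106654217-106750628, minus strand, GRCm38) encodes the adhesion molecule CD31 at contacts between endothelial cells. Its FPKM was 16.0 and 14.3 *in vivo* and 1.63 and 2.13 *in vitro* at 1 week, and 13.02 and 14.9 *in vivo* and 6.41 and 5.31 *in vitro* at 2 weeks. All 4 libraries from the heart lay close together and above all 4 from culture. The log2 difference was 2.96 ± 0.15 at 1 week (limma, Benjamini-Hochberg adjusted p = 1.71e-05) and 1.24 ± 0.15 at 2 weeks (limma, Benjamini-Hochberg adjusted p = 0.00066). Scaled to the fragments on genes, the 2-week difference was 0.91, under the fold threshold.

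*Cdh5* (chr8:104101625-104144511, plus strand) encodes VE-cadherin, the adhesive protein of endothelial adherens junctions. Its FPKM was 29.6 and 26.2 *in vivo* and 4.13 and 4.49 *in vitro* at 1 week, and 16.7 and 18.9 *in vivo* and 15.2 and 11.3 *in vitro* at 2 weeks. The heart libraries were thus far above the culture libraries at 1 week and only slightly above them at 2 weeks. *Cdh5* was 6.48-fold higher in mean FPKM at 1 week, a log2 difference of 2.67 ± 0.15 (limma, Benjamini-Hochberg adjusted p = 2.2e-05). At 2 weeks the log2 difference of 0.43 ± 0.15 (95% interval 0.09 to 0.78) did not pass.

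*Esam* (chr9:37528078-37538319, plus strand) encodes an immunoglobulin-type adhesion molecule of endothelial tight junctions that platelets also carry. Its FPKM was 12.6 and 11.2 *in vivo* and 3.42 and 3.25 *in vitro* at 1 week, and 9.15 and 9.22 *in vivo* and 11.05 and 9.46 *in vitro* at 2 weeks. At 2 weeks both culture libraries lay above both heart libraries, the opposite order to 1 week. The 1-week difference was 1.81 ± 0.10 (limma, Benjamini-Hochberg adjusted p = 2.25e-05), and the 2-week difference of -0.15 ± 0.10 (95% interval -0.39 to 0.09) did not pass. For *Cdh5* and *Esam* the whole 2-week interval lay within a 2-fold change in either direction, whereas that of *Pecam1* (0.87 to 1.61) reached beyond it.

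**Figure D2:**
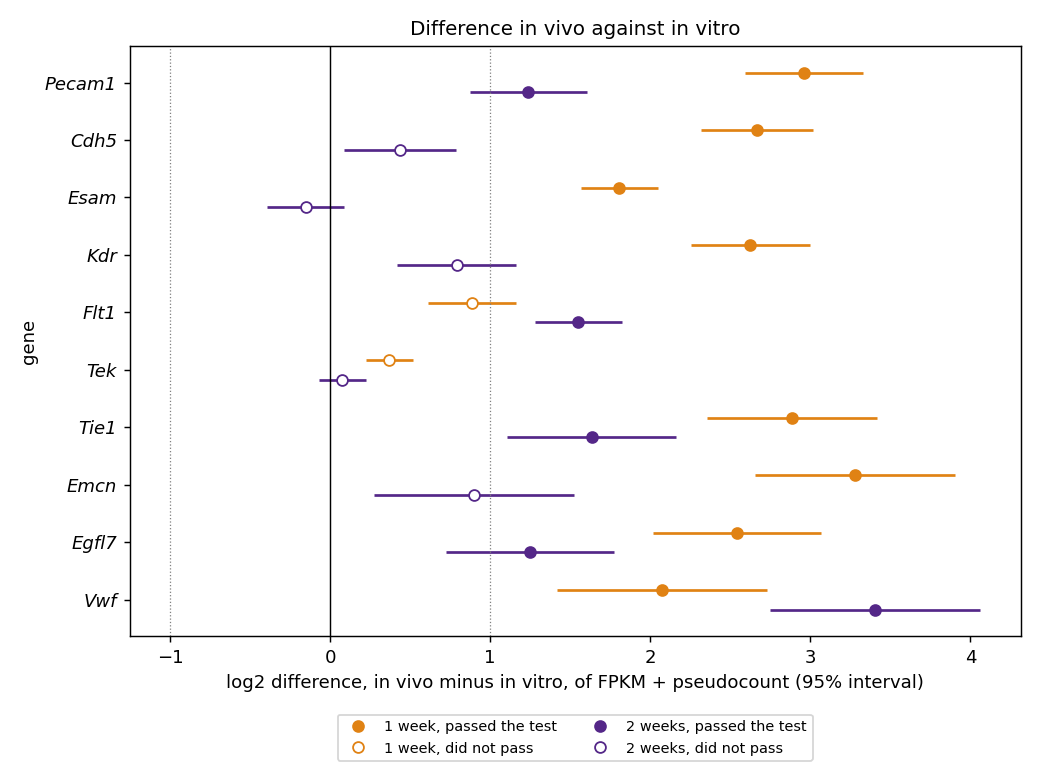
Log2 difference of each gene, *in vivo* minus *in vitro* (x axis, log2 of FPKM plus 0.1), at 1 week (orange) and 2 weeks (purple), with the limma 95% interval as a bar. Filled dots passed the test (8 genes at 1 week, 5 at 2 weeks), dotted lines mark a log2 difference of 1 in either direction, and only *Flt1* and *Vwf* have the 2-week dot to the right of the 1-week dot.

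Promoter sequences are shown for members that moved apart: *Flt1* and *Kdr*, whose ratio turned between the weeks in culture, *Tek*, which stayed high in all groups, and *Emcn*, which had the widest 1-week gap. RefSeq promoter windows (GRCm38.p6) were at hand for 6 of the 10 genes (8 windows) and were searched over the 250 bases before the start. The stretches printed leave out bases inside the deposited gene. Capitals mark AGGAAG or CGGAAG, letters that ETS family factors such as the endothelial ERG and FLI1 bind, on either strand, and AGATAA or TGATAA, the letters of GATA factors. The stretches are chr5:147726012-147726261 for *Flt1* (minus strand), chr5:75978459-75978705 for *Kdr* (minus strand), chr4:94739039-94739288 for *Tek* (plus strand) and chr3:137340828-137341066 for *Emcn* (plus strand), written 5′ to 3′.
Flt1: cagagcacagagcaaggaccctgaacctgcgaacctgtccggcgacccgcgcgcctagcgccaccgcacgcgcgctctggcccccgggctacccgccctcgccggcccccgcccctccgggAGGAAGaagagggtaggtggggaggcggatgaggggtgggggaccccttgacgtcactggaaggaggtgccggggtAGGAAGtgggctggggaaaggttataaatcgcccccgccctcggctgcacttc
Kdr: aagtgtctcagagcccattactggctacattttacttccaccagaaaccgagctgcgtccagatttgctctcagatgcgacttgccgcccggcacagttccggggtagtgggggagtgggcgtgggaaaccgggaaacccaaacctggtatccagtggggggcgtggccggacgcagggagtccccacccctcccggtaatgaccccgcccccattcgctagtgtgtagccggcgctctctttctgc
Tek: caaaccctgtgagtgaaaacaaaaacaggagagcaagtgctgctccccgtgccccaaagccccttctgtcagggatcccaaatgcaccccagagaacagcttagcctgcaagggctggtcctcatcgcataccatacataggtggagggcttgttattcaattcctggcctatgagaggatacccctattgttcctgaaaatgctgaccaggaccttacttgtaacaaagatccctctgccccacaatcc
Emcn: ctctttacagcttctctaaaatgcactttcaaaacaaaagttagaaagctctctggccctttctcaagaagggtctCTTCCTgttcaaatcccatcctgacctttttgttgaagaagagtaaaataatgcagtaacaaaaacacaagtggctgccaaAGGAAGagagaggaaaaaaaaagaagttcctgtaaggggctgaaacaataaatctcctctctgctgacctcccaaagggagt
*Flt1* and *Emcn* each hold 2 matches to the ETS letters, while *Kdr* and *Tek* hold 0, and the GATA letters are in none of these 4 stretches. Over the full 250 bases, 5 of the 8 windows, from 4 of the 6 genes, held the ETS letters, beside 39.3% of 32536 different RefSeq windows of this length, and 16.5% of those held the GATA letters. A match is a description of letters, and its absence says only that the letters are not in this window.

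The VEGF receptors differed from each other. *Kdr* (chr5:75932827-75978458, minus strand) encodes VEGFR2, which carries most of the growth signal of VEGF-A. Its FPKM was 5.05 and 4.43 *in vivo* and 0.597 and 0.779 *in vitro* at 1 week, and 3.63 and 4.08 *in vivo* and 2.26 and 2.11 *in vitro* at 2 weeks. The heart libraries were above the culture libraries at both weeks, by 2.63 ± 0.16 on the log2 scale at 1 week (limma, Benjamini-Hochberg adjusted p = 3.06e-05). The 2-week difference of 0.79 ± 0.16 had an adjusted p of 0.0053 by limma with Benjamini-Hochberg adjustment but stayed under the fold threshold.

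*Flt1* (chr5:147561604-147726011, minus strand) encodes VEGFR1, which binds VEGF-A tightly, signals weakly and also exists as a soluble decoy. Its FPKM was 3.31 and 3.14 *in vivo* and 1.66 and 1.74 *in vitro* at 1 week, and 3.58 and 3.41 *in vivo* and 1.12 and 1.13 *in vitro* at 2 weeks. The heart libraries did not overlap the culture libraries at either week, and the gap was wider at 2 weeks. Its log2 difference was 0.89 ± 0.12 at 1 week, under the fold threshold, and 1.55 ± 0.12 at 2 weeks (limma, Benjamini-Hochberg adjusted p = 6.11e-05). The FPKM ratio of *Flt1* to *Kdr* was 0.656 and 0.708 *in vivo* and 2.78 and 2.24 *in vitro* at 1 week, and 0.987 and 0.835 *in vivo* and 0.496 and 0.537 *in vitro* at 2 weeks. *Flt1* was thus the more abundant of these receptors only in the culture libraries of 1 week, and *Kdr* was the more abundant in the 6 others.

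The TIE receptors also differed. *Tie1* (chr4:118471191-118490061, minus strand) encodes an orphan receptor that partners the angiopoietin receptor. Its FPKM was 10.4 and 9.04 *in vivo* and 1.11 and 1.35 *in vitro* at 1 week, and 8.32 and 10.8 *in vivo* and 3.69 and 2.41 *in vitro* at 2 weeks. The heart libraries were the higher at both weeks, by 2.89 ± 0.22 at 1 week (limma, Benjamini-Hochberg adjusted p = 9.37e-05) and by 1.63 ± 0.22 at 2 weeks (limma, Benjamini-Hochberg adjusted p = 0.001).

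*Tek* (chr4:94739289-94874976, plus strand) encodes TIE2, the receptor of angiopoietins 1 and 2. Its FPKM was 15.2 and 15.4 *in vivo* and 11.9 and 11.8 *in vitro* at 1 week, and 19.5 and 18.4 *in vivo* and 18.4 and 17.6 *in vitro* at 2 weeks. *Tek* was the highest of the 10 genes in culture at both weeks and was among the 2 highest in the heart. Its log2 difference between heart and culture was 0.37 ± 0.06 at 1 week (95% interval 0.22 to 0.52) and 0.08 ± 0.06 at 2 weeks (95% interval -0.07 to 0.22), and neither passed. Scaled to the fragments on genes, the difference of *Tek* was -0.25 at 2 weeks and -0.11 over both weeks, so its direction rests on the scaling. *Tek* made up 14.2% and 16.3% of the FPKM of the 10 genes *in vivo* and 45.4% and 43.1% *in vitro* at 1 week, and 22.6% and 19.8% *in vivo* and 28.9% and 32.7% *in vitro* at 2 weeks. The FPKM ratio of *Tek* to *Tie1* was between 1.47 and 2.34 in the 4 heart libraries and between 4.98 and 10.8 in the 4 culture libraries.

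**Figure D3:**
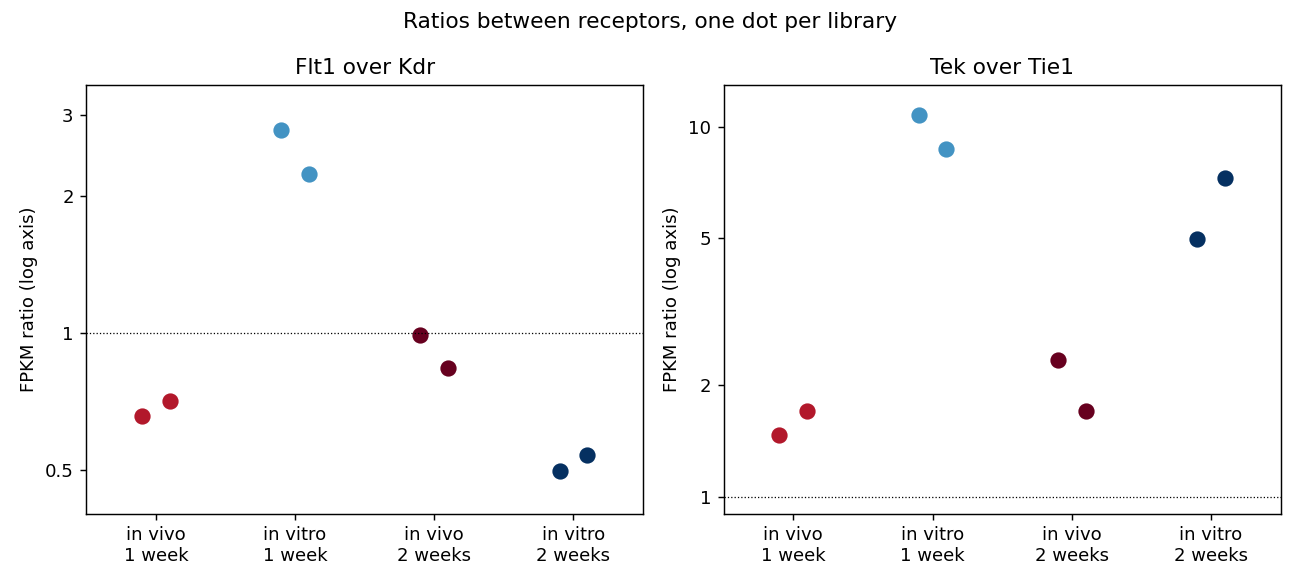
FPKM ratio (log axis) of *Flt1* to *Kdr* (left) and of *Tek* to *Tie1* (right), with 1 dot for each library in the 4 groups and a dotted line at a ratio of 1. The ratio of *Flt1* to *Kdr* was above 1 only *in vitro* at 1 week (2.78 and 2.24), and the ratio of *Tek* to *Tie1* was higher in all 4 culture libraries (4.98 to 10.8) than in all 4 heart libraries (1.47 to 2.34).

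Among the genes of the vessel surface and matrix, *Emcn* (chr3:137341067-137432185, plus strand) encodes endomucin, a sialomucin of capillary and venous endothelium. Its FPKM was 4.23 and 3.38 *in vivo* and 0.396 and 0.223 *in vitro* at 1 week, and 2.64 and 3.63 *in vivo* and 1.74 and 1.495 *in vitro* at 2 weeks. The culture values of 1 week rest on 33 and 18 fragments. *Emcn* had the widest 1-week gap of the 10 genes, at 3.28 ± 0.26 (limma, Benjamini-Hochberg adjusted p = 0.00011), and its 2-week difference of 0.90 ± 0.26 did not pass.

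*Egfl7* (chr2:26580014-26593120, plus strand) encodes a secreted protein of the vessel matrix and hosts the microRNA gene *Mir126a*. That gene of 73 bases is listed at 0 in all 8 libraries, which in mRNA libraries does not show that the microRNA was absent. The FPKM of *Egfl7* was 8.82 and 5.74 *in vivo* and 1.14 and 1.14 *in vitro* at 1 week, and 7.47 and 7.91 *in vivo* and 3.71 and 2.71 *in vitro* at 2 weeks. The 1-week heart libraries stood apart from each other, yet both exceeded every culture library. The log2 difference was 2.54 ± 0.22 at 1 week (limma, Benjamini-Hochberg adjusted p = 0.00016) and 1.25 ± 0.22 at 2 weeks (limma, Benjamini-Hochberg adjusted p = 0.0032). The 2-week call was lost without *in vivo* replicate 1, *in vivo* replicate 2 or *in vitro* replicate 2 of that week, with limma Benjamini-Hochberg adjusted p of 0.014, 0.017 and 0.022, and under scaling to the fragments on genes (log2 difference 0.93). Part of *Egfl7* overlaps *Agpat2* on the other strand, whose FPKM reached 12.2, and the sources do not say whether counting used the strand.

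*Vwf* (chr6:125546774-125686679, plus strand) encodes von Willebrand factor, the clotting protein that endothelial cells store and release. Its FPKM was 1.88 and 1.68 *in vivo* and 0.287 and 0.413 *in vitro* at 1 week, and 2.15 and 1.94 *in vivo* and 0.072 and 0.137 *in vitro* at 2 weeks. The culture values of 2 weeks rest on 16 and 30 fragments, against 389 and 344 in the heart. *Vwf* was the lowest of the 10 genes in 3 of the 4 groups and had the widest gap of the 10 at 2 weeks, at 3.40 ± 0.28 (limma, Benjamini-Hochberg adjusted p = 9.16e-05). The 1-week difference was 2.07 ± 0.28 (limma, Benjamini-Hochberg adjusted p = 0.0011). Without *in vivo* replicate 1 of that week it was 1.996 and no longer passed (limma, Benjamini-Hochberg adjusted p = 0.012).

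Ordered by mean FPKM *in vivo* at 1 week, the genes ran *Cdh5*, *Tek*, *Pecam1*, *Esam*, *Tie1*, *Egfl7*, *Kdr*, *Emcn*, *Flt1* and *Vwf*, and of these neighbours only *Tek* and *Pecam1* overlapped between libraries. At 2 weeks *in vivo* the order was *Tek*, *Cdh5*, *Pecam1*, *Tie1*, *Esam*, *Egfl7*, *Kdr*, *Flt1*, *Emcn* and *Vwf*, with overlaps between *Tek* and *Cdh5*, *Tie1* and *Esam*, and *Flt1* and *Emcn*. *In vitro* at 1 week it was *Tek*, *Cdh5*, *Esam*, *Pecam1*, *Flt1*, *Tie1*, *Egfl7*, *Kdr*, *Vwf* and *Emcn*, where *Pecam1* and *Flt1*, *Tie1* and *Egfl7*, and *Vwf* and *Emcn* overlapped. *In vitro* at 2 weeks it was *Tek*, *Cdh5*, *Esam*, *Pecam1*, *Egfl7*, *Tie1*, *Kdr*, *Emcn*, *Flt1* and *Vwf*, with an overlap between *Egfl7* and *Tie1* alone.

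Over time, those of the 10 genes that passed did so in culture alone. From 1 week to 2 weeks *in vivo*, 0 of the 10 genes changed by limma with Benjamini-Hochberg adjustment, and 0 by limma voom on recovered fragments. Over all tested genes 2.18% changed in either direction by limma, so a count of 0 is close to that share. At an unadjusted p under 0.05 there were 3, namely *Cdh5* with a log2 difference of -0.65 ± 0.15, *Esam* with -0.37 ± 0.10 and *Tek* with 0.30 ± 0.06. *In vitro*, 6 of the 10 rose, beside 2.76% of tested genes: *Pecam1* (1.60 ± 0.15), *Cdh5* (1.59 ± 0.15), *Kdr* (1.54 ± 0.16), *Emcn* (2.10 ± 0.26), *Egfl7* (1.40 ± 0.22) and *Esam* (1.59 ± 0.10). *Tie1*, at 1.22 ± 0.22, lay at the threshold (limma, Benjamini-Hochberg adjusted p = 0.01002), and *Tek* had a log2 difference of 0.60 ± 0.06. *Flt1* and *Vwf* were the only 2 of the 10 with a lower level in culture at 2 weeks, at -0.55 ± 0.12 and -1.14 ± 0.28, and neither passed. Without *in vitro* replicate 1 of 2 weeks, and likewise without replicate 2, *Kdr*, *Emcn* and *Egfl7* did not pass, and higher calls over all tested genes fell too. With any library left out, their log2 differences stayed at 1.38 to 1.71, 1.79 to 2.41 and 1.18 to 1.62. *Egfl7* also lost its call without either *in vitro* replicate of 1 week or either *in vivo* replicate of 2 weeks, and *Emcn* without *in vitro* replicate 2 of 1 week.

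**Figure D4:**
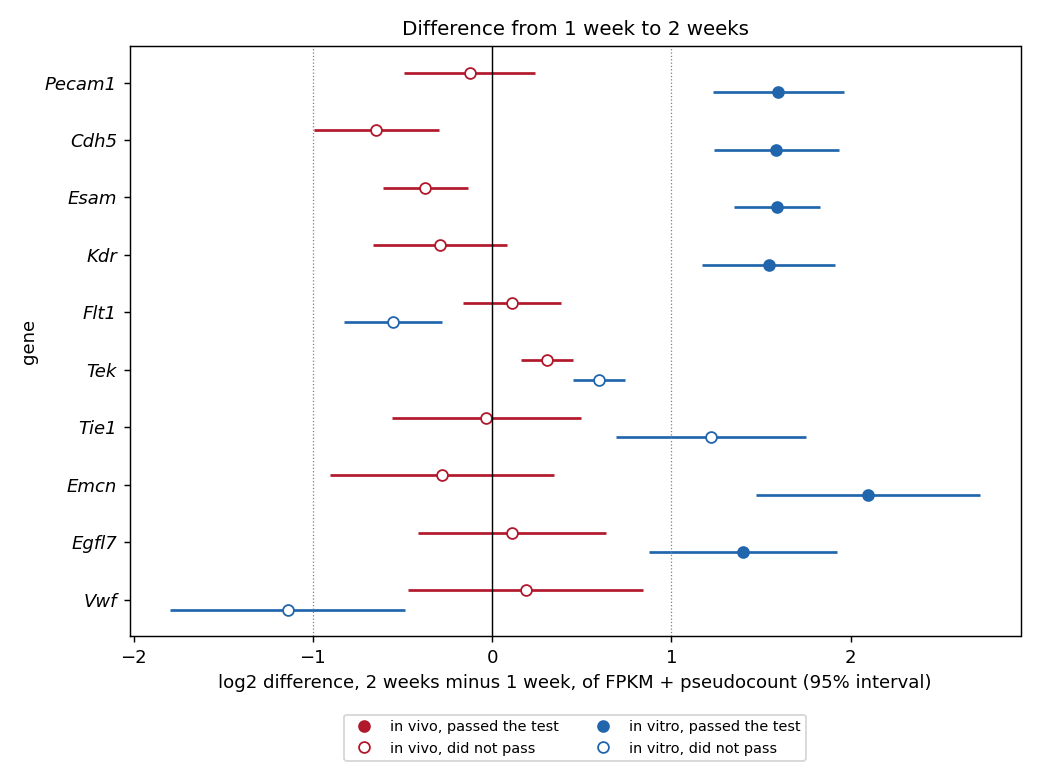
Log2 difference of each gene from 1 week to 2 weeks (x axis, log2 of FPKM plus 0.1) *in vivo* (red) and *in vitro* (blue), with the limma 95% interval as a bar and filled dots for the 6 genes that passed, all of them *in vitro*. The *in vivo* dots lie between -0.65 and 0.30, and the *in vitro* dots of *Flt1* and *Vwf* lie to the left of 0.

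The difference between heart and culture itself differed between the weeks for 4 of the 10 genes by limma's interaction contrast, all with a smaller difference at 2 weeks, beside 1.15% of tested genes. These were *Cdh5* (-2.23 ± 0.21), *Esam* (-1.96 ± 0.14), *Kdr* (-1.83 ± 0.22) and *Pecam1* (-1.72 ± 0.22), with limma Benjamini-Hochberg adjusted p of 0.0036, 0.0024, 0.0062 and 0.0068. The contrast was also below 0 but did not pass for *Emcn* (-2.38 ± 0.37, limma, Benjamini-Hochberg adjusted p = 0.0127), *Egfl7* (-1.29 ± 0.31), *Tie1* (-1.25 ± 0.32) and *Tek* (-0.29 ± 0.09). For *Flt1* and *Vwf* the contrast was above 0, at 0.67 ± 0.16 and 1.33 ± 0.39, and did not pass. This count depends on every library, and it fell whichever library was left out. Lower calls over all tested genes fell in each of these fits too, so the fall was not particular to the 10 genes. With any library left out, the contrast stayed at -2.44 to -2.02 for *Cdh5* and -2.07 to -1.85 for *Esam*. It stayed at -2.002 to -1.67 for *Kdr* and -1.91 to -1.54 for *Pecam1*.

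Across the 8 libraries, the log2 levels of *Flt1* and *Vwf* had a Pearson r of 0.996 with each other. Their r with *Cdh5* was 0.56 and 0.57, and with *Esam* 0.30 and 0.32. *Pecam1*, *Cdh5*, *Kdr*, *Tie1*, *Emcn* and *Egfl7* had r between 0.94 and 0.99 with one another, and *Tek* had r of 0.18 to 0.81 with the other 9. These values describe 4 groups of 2 libraries each, which share cells, preparation and scaling.

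Ligands and partners of these receptors were listed as well. Of the 12 genes, 2 passed at 1 week, both higher *in vivo* (7.79% of all tested genes). At 2 weeks there were 2 in each direction, beside 9.02% of tested genes higher and 8.05% lower. *Ptprb*, the phosphatase VE-PTP that restrains TIE2, had an FPKM of 9.03 and 11.4 *in vivo* against 1.35 and 1.57 *in vitro* at 1 week, and 11.3 and 10.2 against 1.39 and 1.56 at 2 weeks. It was higher *in vivo* at both weeks, with log2 differences of 2.72 and 2.78. *Pgf*, placental growth factor, a ligand of VEGFR1, was higher *in vivo* at 1 week (1.64). *Angpt1*, the activating ligand of TIE2, was at 6.25 and 6.18 *in vivo* and 6.49 and 5.84 *in vitro* at 1 week, and at 9.23 and 9.24 *in vivo* and 3.10 and 3.94 *in vitro* at 2 weeks. *Angpt2*, the context-dependent TIE2 ligand, was at 6.06 and 5.74 *in vivo* and 8.26 and 7.71 *in vitro* at 1 week, and at 10.5 and 10.1 *in vivo* and 30.7 and 24.7 *in vitro* at 2 weeks. At 2 weeks *Angpt1* was thus higher *in vivo* (log2 difference of 1.38) and *Angpt2* lower (-1.41), and neither passed at 1 week. The ratio of *Angpt1* to *Angpt2* lay between 0.757 and 1.08 in 6 libraries and was 0.101 and 0.159 in culture at 2 weeks. *Nrp2*, a VEGF co-receptor, was also lower *in vivo* at 2 weeks (-1.03).

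Other endothelial genes were listed by type, with lists chosen when results of these data were known. Of 24 wider endothelial genes, 21 were higher *in vivo* at 1 week, with a median log2 difference of 2.62. At 2 weeks 15 passed, 1 of them lower, with a median of 1.33. *Adgrl4* (3.51), *Robo4* (3.21) and the surface sialomucin *Cd34* (3.18) had the largest 1-week differences. The water channel *Aqp1* turned from higher *in vivo* at 1 week (1.43) to lower at 2 weeks (-1.33), and its FPKM in culture went from 6.60 and 7.39 at 1 week to 67.0 and 59.5 at 2 weeks. From 1 week to 2 weeks, 15 of the 24 rose *in vitro*, beside 2.76% of tested genes. By limma 0 of the 24 changed *in vivo*, close to the 2.18% of tested genes that changed in either direction.

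Among 13 tested endothelial transcription factors, 4 passed at 1 week, all higher *in vivo*, and 5 at 2 weeks, of which 1 was lower. *Erg*, the ETS factor that maintains endothelial identity, was at 14.4 and 19.0 *in vivo* against 0.544 and 0.328 *in vitro* at 1 week, and at 21.2 and 20.1 against 1.84 and 1.36 at 2 weeks. The log2 difference of *Erg* was 4.99 at 1 week and 3.62 at 2 weeks. *Sox18* (3.999 and 1.62 at 1 week and 2 weeks) and *Sox17* (3.11 at 1 week) were higher *in vivo* as well, and *Lmo2* was lower at 2 weeks (-1.99). *Fli1*, in contrast, lay between 5.61 and 8.83 in all 8 libraries, and *Etv2*, an early endothelial regulator, was listed at 0 in all of them. Reads of *Mef2c*, which is listed here too, can come from the construct.

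Genes of single vessel types varied. Among 10 arterial genes 6 passed at each week, with 1 of them lower *in vivo* at 1 week (5.07% of tested genes) and 2 at 2 weeks. The connexin genes *Gja4* (3.60 and 1.11) and *Gja5* (2.64 and 1.58) were higher at both weeks, *Notch4* was higher at 1 week (3.14), *Bmx* was lower at both (-1.51 and -1.35), and *Hey1* was lower at 2 weeks (-1.18). Of 8 venous and activated genes 4 were higher at 1 week and 2 at 2 weeks, and the apelin receptor gene *Aplnr* and the P-selectin gene *Selp* (3.37 and 2.03) were higher at both. *Sele*, the gene of E-selectin, was higher at 1 week (1.21). *Aplnr* was listed at 0 to 0.156 in the 4 culture libraries, against 3.52 to 8.38 in the heart.

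Capillary genes moved in both directions. The 9 tested genes split into 5 higher, 1 lower and 3 that did not pass at 1 week, and into 4, 3 and 2 at 2 weeks. *Ly6c1*, whose reads may be shared with its close paralog Ly6c2, was at 35.0 and 26.0 *in vivo* against 0.387 and 0.240 *in vitro* at 1 week and at 34.4 and 39.7 against 1.16 and 0.702 at 2 weeks, with log2 differences of 6.22 and 5.20. *Rgcc* (3.16 and 2.27) and the fatty acid carrier gene *Fabp4* (2.55 and 1.00) were higher *in vivo* too. *Car4*, a carbonic anhydrase gene, was lower *in vivo* at both weeks (-2.86 and -6.69), and its FPKM in culture went from 3.44 and 3.10 at 1 week to 32.4 and 32.0 at 2 weeks. *Apln* (-3.82) and *Esm1* (-2.54), which mark endothelial tip cells, were lower *in vivo* at 2 weeks.

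Of 4 tested lymphatic genes 2 were higher *in vivo* at both weeks. *Ccl21a*, which has near-identical gene copies that can share its reads, was at 1.06 and 2.86 *in vivo* at 1 week and at 7.93 and 14.4 at 2 weeks, and was listed at 0 in all 4 culture libraries. *Mmrn1* had log2 differences of 2.11 and 3.55, whereas *Prox1*, the regulator of lymphatic identity, lay between 0.305 and 0.755 in all libraries. Of 3 tested endocardial genes, *Nfatc1* was higher *in vivo* at both weeks (1.55 and 1.67), *Cytl1* was higher at 2 weeks (6.63 and 5.83 FPKM, against at most 0.0696 in culture), and *Npr3* was lower at both (-2.64 and -2.58).

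**Figure D5:**
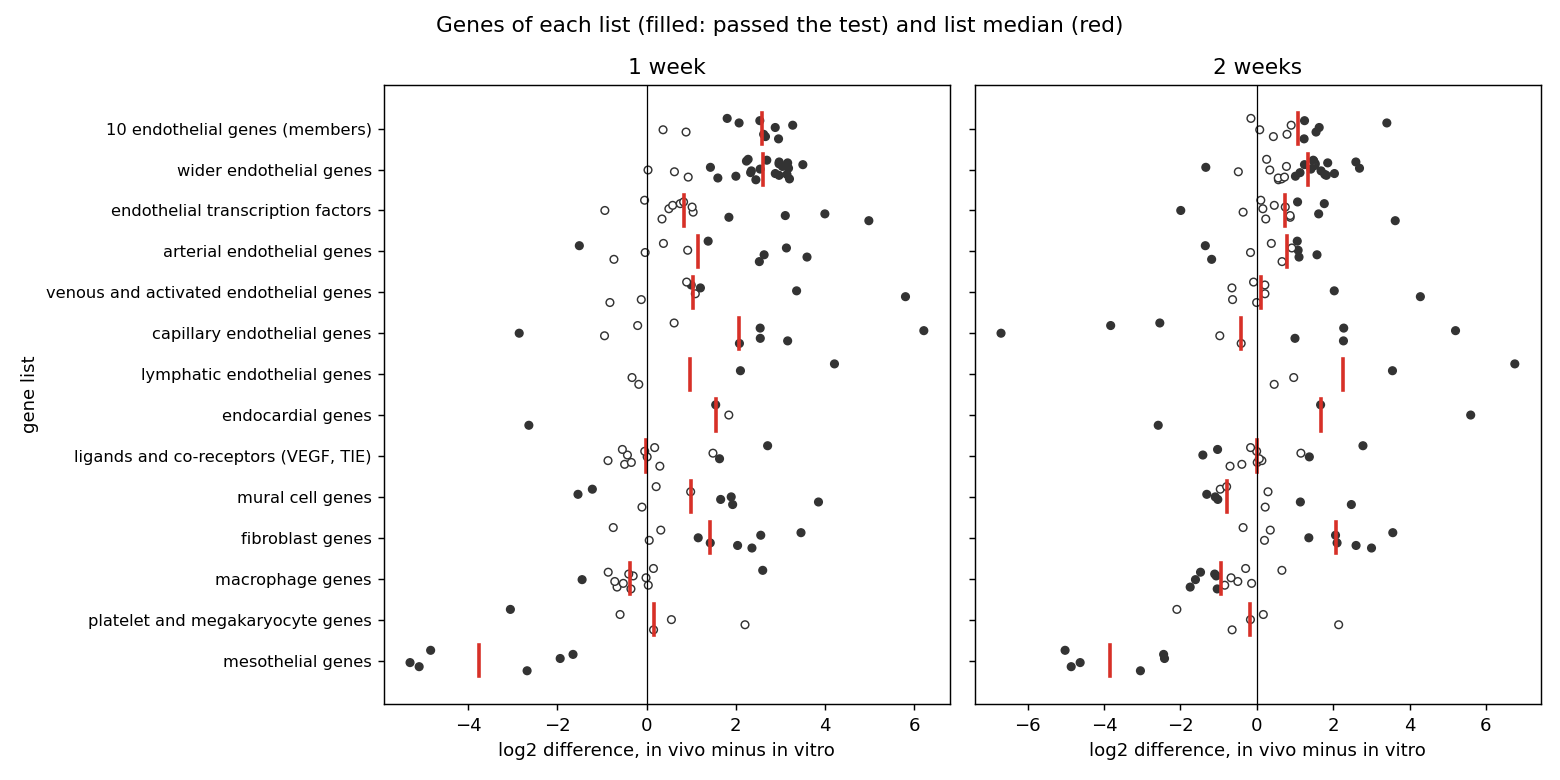
Log2 difference of every tested gene of each list, *in vivo* minus *in vitro* (x axis), at 1 week (left) and 2 weeks (right), with 1 dot for each gene, filled where it passed the test, and a red line at the list's median. Dots of genes at or near 0 in a group depend on the 0.1 added to FPKM. The medians of the 10 genes (2.58 and 1.07) lie beside those of the wider endothelial genes (2.62 and 1.33), and the mesothelial medians (-3.76 and -3.83) lie on the other side of 0.

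Markers of other cells moved as well. Of 9 fibroblast genes, 6 were higher *in vivo* at both weeks, led by *Postn* (3.46 and 3.56), *Col1a1* (2.36 and 3.004) and *Col1a2* (2.04 and 2.60). The other 3 passed at neither week: *Thy1* (-0.75 and -0.36), *Pdgfra* (0.06 and 0.20) and *Tcf21* (0.32 and 0.35). The summed FPKM of the list was 10167 to 13254 in the heart and 2107 to 3222 in culture. All 6 mesothelial genes were lower *in vivo* at both weeks, led by *Upk1b* (-5.30 and -4.62), *Upk3b* (-5.10 and -4.86) and *Lrrn4* (-4.84 and -5.02), with sums of 13.1 to 31.1 in the heart and 234 to 487 in culture. The 9 mural genes split into 4 higher, 2 lower and 3 that did not pass at 1 week, and into 2, 3 and 4 at 2 weeks. Among them were *Rgs5* (3.86 and 1.14) and *Cspg4* (1.93 and 2.48) higher at both, *Notch3* lower at both (-1.54 and -1.31), *Myh11* lower at 1 week (-1.22), and *Abcc9* higher at 1 week and lower at 2 weeks (1.90 and -1.09). The sums of the mural list overlapped, at 225 to 256 in the heart and 207 to 269 in culture. The part of these cells in the values of the 10 genes was not tested.

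Macrophages and platelets share some of the 10 genes. The 12 macrophage genes summed to 2009 to 3150 in the heart and 4951 to 6073 in culture, of which *Lyz2* was the most abundant. Without it, the sum of the other 11 ranged from 1417 to 1697 *in vivo* and from 1734 to 2034 *in vitro* at 1 week. At 2 weeks that sum ranged from 1034 to 1223 *in vivo* and from 2030 to 2361.5 *in vitro*. *Csf1r*, the receptor gene that defines macrophages, overlapped at 1 week, at 71.6 and 64.4 *in vivo* and 57.8 and 75.6 *in vitro*. At 1 week *Fcgr1* (2.61) was higher *in vivo* and *Lyz2* (-1.45) lower, the only 2 of the 12 to pass, and 6 were lower at 2 weeks, led by *Cd68* (-1.74), *Lyz2* (-1.60) and *Mrc1* (-1.47). Of 10 platelet and megakaryocyte genes only 5 were high enough to test and 3 had at most 3 fragments in every library, with *Gp1bb* at 0 throughout. *Treml1* was lower *in vivo* at 1 week (at most 0.11 FPKM, against 0.788 and 1.53 in culture). None of the 5 changed at 2 weeks by limma, close to the share of 17.1% in either direction over all tested genes. *Ppbp* went the opposite way to *Treml1*, on at most 9 fragments. It was at 0.710 and 0.638 *in vivo* against 0.180 and 0 *in vitro* at 1 week. At 2 weeks it was at 0.654 and 0.334 against 0 and 0.0679. It passed at neither week, but over both weeks *Ppbp* was called higher *in vivo* (2.18) and *Treml1* lower (-2.57). *Pf4*, which macrophages also express, made up most of that list's sum of 53.9 to 86.9 in the heart and 68.1 to 91.4 in culture. Whether cells of these kinds contributed to *Pecam1*, *Vwf* or *Esam* was not tested beyond these values.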

How the data were processed

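Total RNA of eGFP+ cells sorted from hearts, and of the cultured cells, was made into libraries with the SMARTER mRNA-Seq kit and sequenced and mapped by Novogene. Per the submitters' processing notes, CASAVA and HISAT2 2.0.5 were used with build mm10, and the counting tool is not given in the sources used here. The authors deposited FPKM for 54532 genes in 8 columns, each matched to a sample by its name. Multiplying these values by gene length gave whole multiples of a step that is fixed in each library, within 0.1 fragments for 100% of values, and fragments per gene were recovered from this. The library size behind the deposited FPKM was 0.863 to 0.915 times the recovered total *in vivo* and 1.09 to 1.15 times that total *in vitro*, so these values include a scaling between libraries. PCR copies count as separate fragments, so fragment numbers show counting error only. All 10 genes have the same start and end in GENCODE vM21 (GRCm38).

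Linear models over 4 groups were fitted to log2(FPKM + 0.1) by limma 3.58.1 (R 4.3.3), with eBayes and a trend. The filter required 0.5 FPKM in 2 or more libraries, and Benjamini-Hochberg adjustment ran over every gene that passed it. The levels of 0.01 and 2-fold are those of the study, which applied a count-based test and does not state that its p was adjusted. Here 0.01 was applied to the adjusted p. The fits covered each week, both weeks, time in each setting and the difference between weeks. The procedure was tested on simulated data. Replicate numbers were not used as pairs. The fragments of 2 replicates differed more than by sampling noise (chi-square 4.83 to 10.6 for each gene on average, with 1 degree of freedom).

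The 10 members and all gene lists were chosen with earlier results of these data known, so they are not independent evidence. All 10 members are given in every library. Of each list, up to 3 genes that rose most and up to 3 that fell most among those changed at a week are named, plus defining markers. Genes like the members were ranked by Pearson r over 8 libraries among tested protein-coding genes whose mean FPKM reached 1. Alternatives were other pseudocounts, filters, scalings and thresholds, protein-coding genes only, libraries of a single week, no variance trend, limma voom on recovered fragments, a replicate block and each library left out. Python 3.11.15, numpy 2.4.6, pandas 2.3.3 and matplotlib 3.10.9 were used.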

Additional observations from a re-analysis of the deposited data

Results flagged for a closer look

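For some genes the log2 difference between heart and culture differed between the weeks by limma's interaction contrast, and these values give the 2-week difference minus the 1-week difference. Among the 10 genes these were *Pecam1* (-1.72), *Cdh5* (-2.23), *Kdr* (-1.83) and *Esam* (-1.96). Of the genes named from the other lists, *Gja4* (-2.49), *Notch4* (-2.22), *Fabp4* (-1.55), *Sox18* (-2.38), *Adgrl4* (-2.26), *Robo4* (-2.56) and *Pgf* (-1.57) had a smaller excess *in vivo* at 2 weeks than at 1 week. *Apln* (-3.62), *Esm1* (-3.16) and *Aqp1* (-2.77) were lower *in vivo* than *in vitro* at 2 weeks only. The mural genes *Rgs5* (-2.71) and *Abcc9* (-2.99) differed in the same direction. Among genes named earlier that passed this contrast, only *Angpt1* (1.36) had a larger excess *in vivo* at 2 weeks. *Klf2*, from the list of transcription factors, also passed in that direction (1.01). No group has enough libraries for a search for outlying samples.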

How the results depend on the processing

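Precision is limited by 2 libraries in a group and by depth, with as few as 16 fragments behind a value of *Vwf*. Under scaling to the fragments on genes, the median of all genes moved to -0.34 at 1 week and -0.33 at 2 weeks, and higher calls went from 60.6% to 36.7% and from 52.8% to 32.9% of all calls. Under this scaling 3 of the 10 genes passed at 2 weeks in place of 5, while higher calls over all tested genes went from 1417 to 1029. *Tek* turned there to -0.25 at 2 weeks and -0.11 over both weeks. With an adjusted p under 0.05 and no fold threshold, 8 passed at 2 weeks, 3 over time *in vivo*, 10 over time *in vitro* and 7 for the difference between weeks. The share of all tested genes was not computed at these levels, so these counts have no background to be read against. That difference was called for 4 genes and for 1 with no filter on low values, 1 with no variance trend and 1 with the replicate block. Over all tested genes, calls in the same direction went from 181 to 45, 39 and 16 in these settings. The difference between the 2 replicates of a group was correlated across genes with that of each other group, at r of -0.048 to -0.011. Replicate numbers thus showed no shared effect, though this cannot settle whether samples were paired, which the sources do not say. The replicate block is given only as an alternative, and it changed no other count beyond 1.5 times. With each library left out in turn, 3 to 6 genes passed over time *in vitro*, 0 to 2 for the difference between weeks, 7 to 8 at 1 week, 4 to 5 at 2 weeks and 8 in every case over both weeks. The time differences *in vivo* of *Tie1* (-0.22 to 0.15) and *Egfl7* (-0.20 to 0.41) changed sign on leaving out a library, and neither passed in any case. *Flt1* over both weeks fell under the fold threshold with a pseudocount of 1 (0.86) and under the scaling to fragments (0.90). Except where named, the cause was not tested. Pseudocounts of 0.01 and libraries of a single week changed no call of the 10 genes.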

Other observations

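The mean standardised profile of the 10 genes was highest in the heart libraries and lowest in culture at 1 week. Among 11434 candidate genes, the 10 most like it were *Gimap6* (Pearson r 0.995), *Nos3* (0.994), *Clu* (0.994), *Smarca1* (0.993), *Fabp4* (0.993), *Rasip1* (0.992), *Gfpt2* (0.992), *Ndrg1* (0.992), *Mfap2* (0.992) and *Sox18* (0.991). *Nos3* encodes the nitric oxide synthase of endothelium and *Rasip1* a regulator of vessel lumens. *Nos3* was at 2.63 and 2.77 *in vivo* and 0.424 and 0.486 *in vitro* at 1 week, and at 2.47 and 2.76 *in vivo* and 1.36 and 0.943 *in vitro* at 2 weeks. Not all of these genes are known from endothelium: *Mfap2*, a microfibril gene of connective tissue, was at 61.1 and 61.2 *in vivo* and 17.004 and 16.6 *in vitro* at 1 week. In all 237 candidates had r over 0.95 across the 8 libraries, which form 4 groups.

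The 10 genes most like *Cdh5* alone were *Robo4* (0.990), *Bcl6b* (0.987), *Rgs5* (0.984), *Notch4* (0.984), *Mfap2* (0.981), *Mcam* (0.981), *Nrg1* (0.981), *Homer1* (0.980), *Trabd2b* (0.979) and *Adgrl4* (0.979). *Robo4* and *Bcl6b* are endothelial genes, and *Rgs5* is a pericyte gene that was at 78.6 and 66.0 *in vivo* and 4.16 and 5.73 *in vitro* at 1 week, and at 52.6 and 42.1 *in vivo* and 22.8 and 19.9 *in vitro* at 2 weeks. For *Cdh5*, 51 candidates had r over 0.95.

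Relative to *Cdh5*, some members kept a steady ratio of FPKM and others did not. The ratio of *Kdr* to *Cdh5* lay between 0.145 and 0.217 in all 8 libraries. That of *Vwf* to *Cdh5* lay between 0.0636 and 0.128 in 6 libraries and was 0.0047 and 0.012 in culture at 2 weeks. The ratio of *Pecam1* to *Cdh5* was 0.541 to 0.786 in the heart and 0.394 to 0.474 in culture.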
